A study of Mus musculus with 2 samples.

Results

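Of the 2195 nuclear H3K9bhb peaks of the series, 276 (12.6%, 95% exact interval 11.2 to 14.0) had their summit within 2 kb of annotated ends of at least 2 different protein-coding genes, and these shared summits are described here. H3K9bhb is histone H3 carrying β-hydroxybutyrate on lysine 9. Each peak was represented by its lowest-coordinate summit, peaks on the mitochondrial genome (9 of 2204) were left out, and a gene end is either the transcription start or the transcript end of a RefSeq gene (assembly GRCm38.p6, which mm10 denotes). The rule used position only, and no measured value entered it. Ends of 2 genes lay near 271 of the summits and ends of 3 genes near the other 5, which gave 286 gene pairs (283 distinct) and 550 genes. The series comprises 1 ChIP library and 1 input DNA library from spleen-derived CD8+ T cells of C57BL/6 OT-I mice, which carry a transgenic T cell receptor against an ovalbumin peptide. The cells were activated with that peptide and interleukin-2 for 3 days, kept in interleukin-15 for 4 days to become memory-like, and treated with β-hydroxybutyrate for 3 days, with neither its dose nor its timing relative to interleukin-15 given in the labels. The labels give 70 M paired-end reads of 150 bases per experiment. No untreated culture, replicate or input signal was analysed here, so there is no test and no p-value. Presence of a peak is therefore a statement about the treated culture alone. Intervals cover counting error only, and the list carries no read depth per peak.

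Genes can share a regulatory region in several ways. Divergent genes lie on opposite strands with their starts close together, often in a CpG island, so that a common bidirectional promoter serves both. Convergent genes have neighbouring transcript ends, and in tandem pairs the transcript end of a gene lies beside the start of the next. Divergent promoters are known for housekeeping genes, among them genes of DNA repair, mitochondria, chaperones and purine synthesis. Histone acylations of active chromatin, to which β-hydroxybutyrylation is related, are commonly found on the nucleosomes downstream of active starts.

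At divergent pairs the stretch between the starts is the smallest piece of DNA that both genes have in front of them. It is shown for the 8 divergent pairs with the highest summit scores among those whose starts lie 30 to 250 bases apart, as read from RefSeq promoter windows of GRCm38.p6, on the plus strand from 5′ to 3′. Fhl4/Tmem263, with a stretch of 131 bases, tied with the last of these, Tfb2m/Cnst, at a score of 7.95 and is not shown. The gene named first is on the minus strand and runs to the left of its stretch, and the gene named second is on the plus strand and runs to the right. Capitals mark matches, on either strand, to 8 short motifs: the Sp/Klf GC box GGGCGG, the ETS core CCGGAA, the NRF1 core TGCGCA, the YY1 core ATGGCGG, the NF-Y box CCAAT, the E-box CACGTG, the CRE half-site TGACG and the TATA box TATAAA.
Zdhhc3/Exosc7, chr9:123113195-123113230: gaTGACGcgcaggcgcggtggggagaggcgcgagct
Slc26a8/Mapk14, chr17:28691274-28691341: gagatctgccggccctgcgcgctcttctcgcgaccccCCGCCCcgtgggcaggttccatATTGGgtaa
Utp18/Mbtd1, chr11:93885767-93885849: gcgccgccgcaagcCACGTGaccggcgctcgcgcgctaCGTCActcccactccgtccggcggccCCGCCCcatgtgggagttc
Iqch/Aagab, chr9:63602527-63602629: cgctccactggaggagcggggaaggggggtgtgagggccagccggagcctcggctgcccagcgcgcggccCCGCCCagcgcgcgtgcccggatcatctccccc
Ranbp1/Trmt2a, chr16:18248695-18248846: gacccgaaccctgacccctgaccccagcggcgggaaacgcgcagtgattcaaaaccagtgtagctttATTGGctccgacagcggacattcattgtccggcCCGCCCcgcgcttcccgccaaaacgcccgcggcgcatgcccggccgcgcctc
Spata1/Gng5, chr3:146499794-146499835: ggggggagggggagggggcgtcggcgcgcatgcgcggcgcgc
Glyr1/Ubn1, chr16:5049939-5050056: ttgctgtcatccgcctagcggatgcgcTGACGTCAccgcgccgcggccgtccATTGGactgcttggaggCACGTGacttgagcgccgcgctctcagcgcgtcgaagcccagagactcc
Tfb2m/Cnst, chr1:179546306-179546443: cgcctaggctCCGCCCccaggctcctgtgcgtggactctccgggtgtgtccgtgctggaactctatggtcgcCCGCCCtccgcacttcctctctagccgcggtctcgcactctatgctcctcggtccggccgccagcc
These stretches were 36 to 152 bases long and 66.9% to 88.1% G or C. Each of them held at least 6 CpG dinucleotides, and the Ranbp1/Trmt2a stretch held 19. By the letters given above, no printed stretch matched the TATA box, the ETS core, the NRF1 core or the YY1 core. The Spata1/Gng5 stretch matched none of the 8 motifs. Only these exact letters were searched, so other forms of a factor's site were not counted and may be present. A match is a description of letters and not of a bound site.

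Shared summits lay mostly where transcription starts of different genes meet. All genes at a summit had a known strand for 215 of the 276 summits, and 165 of these (76.7%, 95% interval 70.5 to 82.2) had starts of 2 or more genes within 2 kb. A further 44 (20.5%, 15.3 to 26.5) had 1 start beside a transcript end of another gene, and 6 (2.79%, 1.03 to 5.97) had transcript ends only. Counted by pairs with each gene represented by its end nearest to the summit, 161 of the 225 pairs of known strand (71.6%, 65.2 to 77.4) were start to start, 57 (25.3%, 19.8 to 31.5) start to end and 7 (3.11%, 1.26 to 6.30) end to end. The other 61 summits involve a gene whose strand is not in the table used, and they enter no count by orientation. They are not spread evenly, and all 3 shared summits of chromosome 18 are among them. At the 1532 summits near the ends of a single gene, the start was the nearer end in 1198 of 1247 with known strand (96.1%, 94.8 to 97.1).

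All neighbouring genes of the annotation give the background for these counts. Of 21883 nuclear protein-coding genes, 9.34% had a summit within 2 kb of an end and 2.51% had a shared one. There were 6702 pairs of genes with ends within 4 kb of each other, the most that windows of 2 kb on either side of a summit can span, and 283 of them (4.22%) had a shared summit. Here each pair was classed by its closest ends, so the counts differ a little from those by the summit. Start-to-start pairs made up 1210 of the 4436 close pairs of known strand (27.3%), start-to-end pairs 38.6% and end-to-end pairs 34.1%. A shared summit was called at 161 of the 1210 start-to-start pairs (13.3%, 11.4 to 15.4), at 52 of 1713 start-to-end pairs (3.04%, 2.28 to 3.96) and at 9 of 1513 end-to-end pairs (0.595%, 0.272 to 1.13). Pairs without a known strand lay between, with 61 of 2266 (2.69%). The intervals of the 3 orientations did not overlap, although pairs that share a gene are not independent of each other.

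The order of the orientations was the same at each spacing up to 2 kb. With closest ends up to 250 bp apart, 94 of 639 start-to-start pairs (14.7%), 15 of 181 start-to-end pairs (8.29%) and 5 of 392 end-to-end pairs (1.28%) had a shared summit. With ends more than 1000 and up to 2000 bp apart the shares were 13.4%, 4.22% and 0.299%. Beyond 2000 bp at most 1 pair of each orientation had a shared summit, where the stretch within reach of both ends shrinks by construction. Genes without a close neighbour give the level for lone ends: of 6526 such genes longer than 8 kb, 678 (10.4%, 9.66 to 11.2) had a summit within 2 kb of the start and 17 (0.26%, 0.152 to 0.417) within 2 kb of the transcript end. Of 1163 close divergent pairs, 154 (13.2%, 11.3 to 15.3) had a shared summit and 192 (16.5%, 14.4 to 18.8) had any summit near an end of either gene. Such a pair offers starts of 2 genes where a lone gene offers 1, so the shares are not per start. Whether the genes of each class are expressed in these cells was not measured here.

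**Figure D1:**
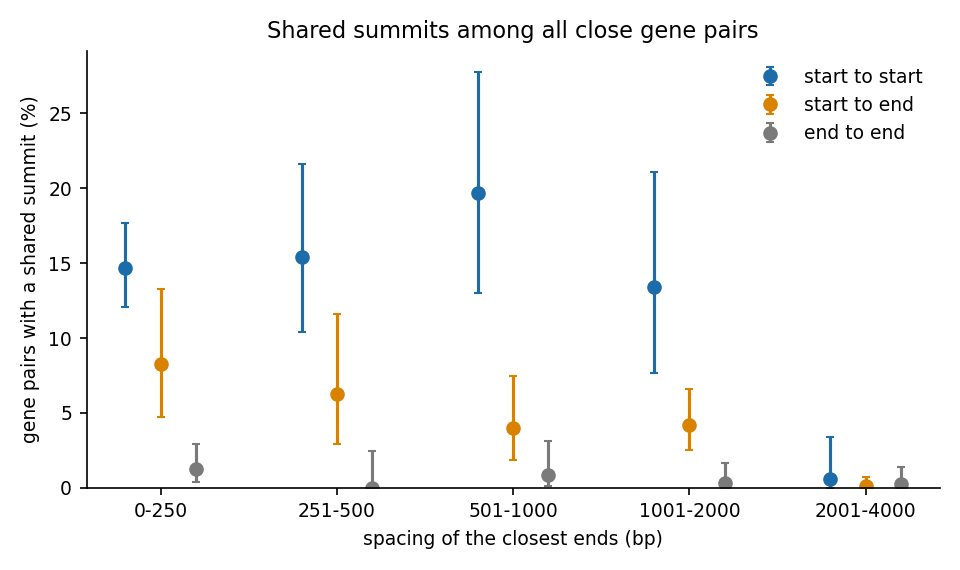
Share of all close gene pairs (%, points) with a shared H3K9bhb summit, by the spacing of their closest ends in bp and by orientation, with 95% exact binomial intervals (bars). Start-to-start pairs lie at 13.4% to 19.7% up to 2000 bp, above start-to-end pairs at 4.02% to 8.29% and end-to-end pairs at 0% to 1.28%.

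The rule limits the spacing of the ends that share a summit, since both lie within 2 kb of it. The closest pair of ends at each summit was 249.5 bp apart at the median (quartiles 83.75 and 723.25), and it was within 300 bp at 155 and within 1 kb at 229 of the 276 summits. With a window of 5 kb the median was 723.5 bp. Start-to-start pairs were spaced at a median of 180 bp (quartiles 64 and 495, widest 2233), start-to-end pairs at 723 bp (230 and 1215, widest 2810) and the 7 end-to-end pairs at 164 bp (widest 1089). The nearest end lay 183.5 bp from the summit at the median and the end of the second gene 525.5 bp. At the limit of the rule, 10 summits had the second gene's end 1800 to 2000 bp away (median score 5.35) and 13 that were not members had it 2000 to 2200 bp away (median 5.12).

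At divergent pairs with their starts apart, few summits lay between the starts, a stretch that was mostly short. Any position near such a pair that is not between the starts counts as inside a gene by construction. Whether fewer summits lay there than the length of the gaps would give was not tested. Each start here is the outermost annotated end of its gene, and a start further in would change gaps, overlaps and depths. These positions were not recounted with another source of starts. Of the 161 start-to-start pairs, 154 were on opposite strands, at 152 summits because overlapping gene records can form a pair each. Slc26a8/Mapk14 and Ccdc92/Zfp664, with 2 shared peaks each, are counted once per peak. The interval given below treats all these entries as independent. In 92 of these the starts were apart, by a median of 147 bp (quartiles 67.25 and 281.5), and the summit was inside the minus-strand gene in 41, inside the plus-strand gene in 44 and between the starts in 7 (7.61%, 95% interval 3.11 to 15.1). Those inside a gene lay a median of 180 bp past its start (quartiles 122 and 345). The few summits between starts were not limited to wide gaps, nor common there. They numbered 1 of 34 for gaps under 100 bp, 3 of 24 for gaps from 100 to under 200 bp and 3 of 33 for wider gaps; the starts of the remaining pair, Ears2/Ubfd1, adjoin. In the remaining 62 divergent pairs the annotated genes overlap at their starts, by a median of 302.5 bp, and the summit was inside both genes in 26, inside the minus-strand gene alone in 16 and inside the plus-strand gene alone in 20. At single-gene starts 1016 of 1198 summits (84.8%) were inside the gene, a median of 249 bp past the start (quartiles 140 and 483.5). There the whole side before the start counts as outside the gene, so this share cannot be set against that at divergent pairs.

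**Figure D2:**
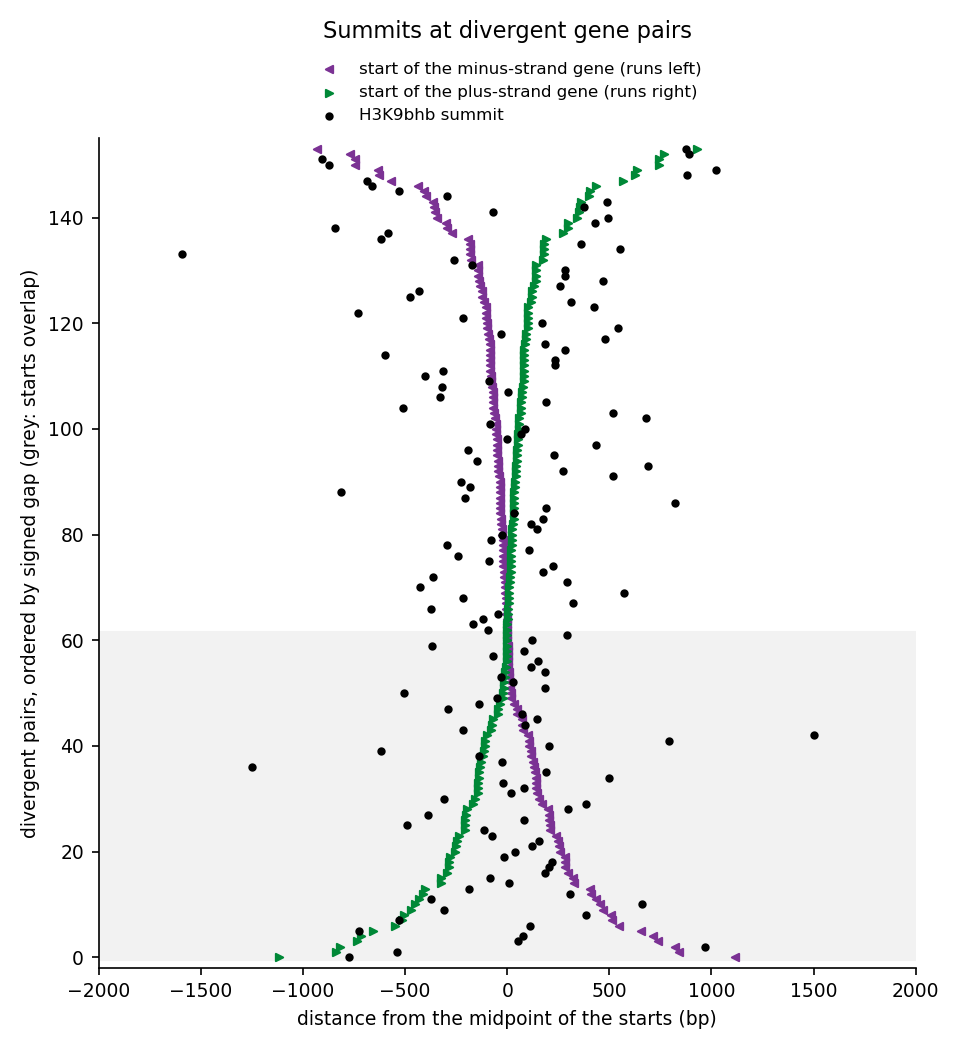
Position of the H3K9bhb summit (black) at 154 divergent pairs, each a row ordered by the signed gap between the starts, against distance in bp from the midpoint of the starts (triangles); the grey area holds the 62 pairs whose starts overlap. Above the grey area the summits lie outside the funnel formed by the starts in 85 of 92 rows, on its left in 41 and on its right in 44.

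The 7 summits between divergent starts are given because they are the exceptions, chosen after their values were seen. They were at Iqch/Aagab (score 9.18), G3bp2/Uso1 (7.89), Chmp1a/Spata33 (5.63), Cep57l1/Sesn1 (5.51), Myl12a/Myom1 (3.06), Arl3/Sfxn2 (2.12) and Dtymk/Ing5 (2.08). G3bp2 encodes a stress granule protein and Uso1 a vesicle tether of the Golgi. Sesn1 encodes a stress-induced sestrin, and its summit lay 423 bp before its start. The summit at Chmp1a/Spata33 was 1 bp before the start of Chmp1a, and that at Iqch/Aagab lay about midway, 50 and 54 bp from the starts.

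Scores, the −log10 p or q values that the authors deposited for each summit, ranged from 2.02 to 25.5 at shared summits. The highest was at the transcript ends of Agap2, an Arf GTPase-activating protein, and Os9, a lectin of endoplasmic reticulum quality control, on chromosome 10 at 127092846. That summit was 324 bp inside Agap2 and 1413 bp beyond Os9. The next 3 were at divergent starts. Zdhhc3, a palmitoyltransferase, and Exosc7, a subunit of the RNA exosome, start 37 bp apart on chromosome 9, and the summit (15.1) lay 72 bp inside Zdhhc3. Pfn4, a profilin, and Fam228b overlap by 253 bp at their starts on chromosome 12, and the summit (14.7) was inside both. Slc26a8, an anion transporter known from testis, and Mapk14, the p38α kinase, start 69 bp apart on chromosome 17 (the second sequence above).

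Mapk14 had 2 shared peaks, both on its side. The summits scored 12.5 and 10.5 and lay 154 and 788 bp past its start, at 28691496 and 28692130, and neither lay inside Slc26a8. Bcl2l11/Acoxl and Ccdc92/Zfp664, both picked with their values in view, were the other pairs with 2 shared peaks. Bcl2l11, which encodes the pro-apoptotic protein BIM, had summits 132 bp before and 492 bp past its start, each scoring 7.89. Acoxl, an acyl-CoA oxidase-like gene, ends inside Bcl2l11, 214 bp past that start. At Ccdc92/Zfp664 the summits fell on either side, 627 bp inside Ccdc92 (2.73) and 320 bp inside Zfp664 (3.85).

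Among the 15 highest-scoring shared summits, 9 were at divergent starts, counting both at Slc26a8/Mapk14. Fyttd1, an mRNA export adaptor, and Rubcn, a regulator of autophagy (11.8), overlap by 149 bp. Chchd4, the oxidoreductase of the mitochondrial intermembrane space, and Tmem43, a nuclear envelope protein (11.8), start 284 bp apart, with the summit 29 bp inside Chchd4. Noc2l, a nucleolar protein, and Klhl17 (10.5) overlap by 203 bp, and the summit lay 1602 bp past the Noc2l start. Trip13, an ATPase of the spindle checkpoint, and Brd9, a bromodomain subunit of a chromatin remodeller (10.2), start 6 bp apart, with the summit 117 bp inside Trip13. Snap29, a SNARE protein, and Pi4ka, a phosphatidylinositol kinase (9.95), overlap by 315 bp.

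The others of the 15 had different arrangements. Cep170, a centrosome protein (10.5), had its start 11 bp from the summit, and Sdccag8, also of the centrosome, has no strand in the table. Neither gene at Cdca2/Kctd9 (11.8) has a known strand, and the summit was 215 bp inside Kctd9. The rest, at Zmynd10/Rassf1, Tead2/Cd37 and Qars/Qrich1, belong to the start-to-end and end-to-end pairs.

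Start-to-end pairs had their summits at the start rather than at the transcript end. In 47 of 57 (82.5%, 95% interval 70.1 to 91.3) the start was the nearer, at a median of 286 bp against 750 bp for the transcript end, and 43 of the 57 were tandem pairs on the same strand. Rassf1, a Ras-association tumour suppressor, starts 113 bp past the end of Zmynd10, a cilium assembly gene, and the summit (11.9) lay 160 bp inside Rassf1. Qrich1 starts 1041 bp past the end of Qars, the glutaminyl-tRNA synthetase, and the summit (10.8) was 749 bp inside Qrich1. At Mcrip1/Ppp1r27 the summit (9.57) was 18 bp before the start of Mcrip1. At Adamts13/Cacfd1 (7.996) it was 157 bp inside Cacfd1, and at Sec61a2/Dhtkd1 (7.95) it was 196 bp inside Sec61a2, which encodes a translocon subunit. Fgf11/Tmem102 (7.996) was among the exceptions, with the summit 379 bp from the transcript end of Tmem102 and 1030 bp from the start of Fgf11.

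End-to-end pairs were few and spread widely in score. After Agap2/Os9 came Tead2/Cd37 (10.9), a TEAD factor and a leukocyte tetraspanin, with the summit 746 bp inside Cd37. Psap, which encodes prosaposin, and Cdh23, a cadherin (9.50), had a summit 736 bp inside Psap. The others scored 3.58 (Golga2/Dnm1), 2.74 (Tnfsf13/Tnfsfm13), 2.32 (Fmnl1/Efcab15) and 2.09 (Atp1b1/Nme7). Tnfsf13 and Tnfsfm13 end at the same base and share the summit with the start of Senp3, a SUMO protease, which was the nearest end at 257 bp.

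Some pairs are overlapping gene records on the same strand rather than neighbours. They make up 7 of the 161 start-to-start pairs, all given here with their values in view: Taf9/Ak6, Gm20604/Gon7, Gm21992/Rbm14 and Clk2/Gm45927, which start at the same base, Slc5a3/Mrps6 (14 bp apart), Pet117/Kat14 (49 bp) and LOC115488671/Gspt1 (689 bp). In 12 of the 286 pairs 1 gene lies wholly within the other. The 5 summits with ends of 3 genes were at Senp3/Tnfsf13/Tnfsfm13, Gm20604/Gon7/Ubr7 (4.37), Rad17/Taf9/Ak6 (2.22), LOC115489748/Cers2/Anxa9 (6.63) and LOC115486880/Rspry1/Psme3ip1 (2.51), the first 3 with such a nested record and the last 2 with a LOC record whose transcript end is near. Apart from these records the smallest spacings were at divergent starts. Tti1, a partner of PIKK kinases, and Rprd1b, an RNA polymerase regulator, start at the same base (4.26). The starts were 1 bp apart at Ears2/Ubfd1 (7.30), 2 bp at AI597479/Tgfbrap1 (3.33) and Gak/Tmem175 (3.85), and 4 bp at Dram2/Cept1 (4.26) and Ints7/Dtl (5.41). At Ints7/Dtl, genes of the Integrator complex and of a replication-coupled ubiquitin ligase, the summit was 84 bp inside Ints7.

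Shared summits did not score higher than single-gene summits. The median was 4.54 (quartiles 3.33 and 6.54) at the 276 shared summits and 5.04 (3.50 and 6.78) at the 1532 single-gene summits. Scores over 10 were found at 14 of 276 (5.07%) and 106 of 1532 (6.92%). By orientation the medians were 4.26 for start to start (157 summits), 4.76 for start to end (54) and 3.58 for end to end (7), with widely overlapping quartiles. No test was made, since the peaks come from 1 library.

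**Figure D3:**
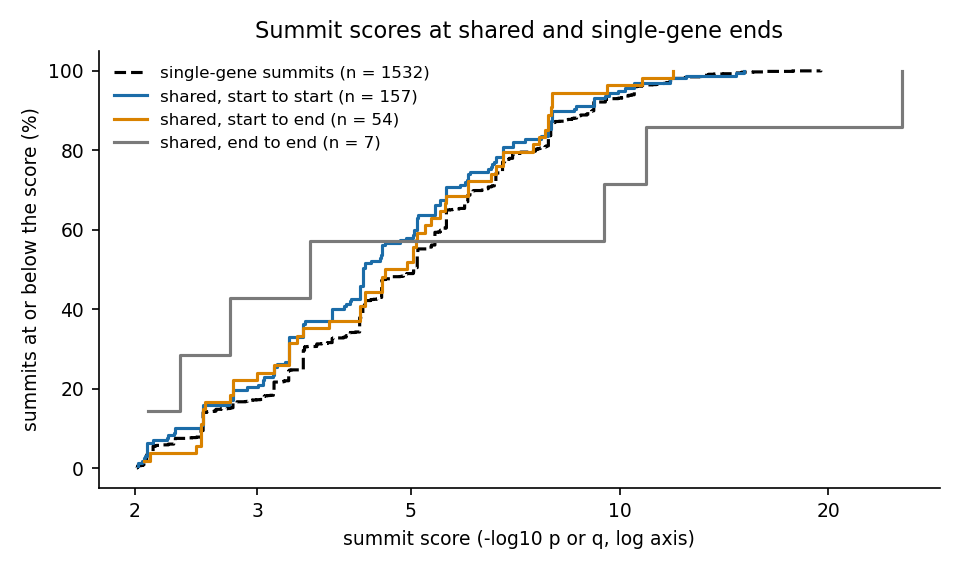
Cumulative share of summits (%) against the deposited summit score (−log10 p or q, log axis) for single-gene summits (dashed) and for shared summits by orientation (lines). The curves of start-to-start and start-to-end summits run beside or slightly left of the single-gene curve, and the 7 end-to-end summits spread from 2.09 to 25.5.

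The promoters of divergent pairs at shared summits were rich in CpG, as were those at single-gene summits. Base composition was read from the RefSeq windows of 300 bases (250 before to 50 after a start), 1 per gene, and the windows of a close pair share sequence. The observed to expected CpG ratio had a median of 0.885 (quartiles 0.750 and 0.983) for the 302 genes of divergent pairs at shared summits. It was 0.833 for 1178 starts at single-gene summits, 0.790 for 1918 genes of close divergent pairs without a summit, and 0.577 for all 17491 promoters. A ratio over 0.6 was found in 89.1%, 87.5%, 74.0% and 48.4% of these promoters. The GC content was 66.0%, 66.3%, 60.0% and 56.3% at the median. Divergent pairs without a summit lay between the promoters at summits and all promoters in each of these measures.

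ETS cores were more frequent in both divergent groups than in the others. They were found in 38.7% of divergent promoters at shared summits (117 of 302) and 35.2% of divergent promoters without a summit, against 23.9% at single-gene summits and 19.1% of all promoters. GC boxes were more frequent in both groups with a summit, with 71.2% at shared and 78.5% at single-gene summits, 59.0% in divergent pairs without a summit and 46.3% of all. NRF1 cores were in 20.5%, 15.6%, 16.3% and 10.1%, and CRE half-sites in 41.4%, 32.3%, 34.6% and 23.8%, in the order shared, single-gene, divergent without a summit, all. TATA boxes were in 4.30%, 5.09%, 7.04% and 13.3%. E-boxes (13.9%, 11.2%, 10.4%, 7.91%), YY1 cores (8.28%, 8.57%, 11.5%, 5.43%) and NF-Y boxes (40.1%, 33.8%, 41.2%, 39.2%) are given in the same order. The stretch between the starts alone could be read for 60 of 87 distinct stretches with bases in them. Of the 52 stretches of at least 30 bases, 25 held a GC box, 18 an NF-Y box, 13 a CRE half-site and 5 an ETS core, and 0 held a TATA box. Short motifs occur more often in GC-rich sequence when they are GC-rich themselves, and the part of base composition in these shares was not tested.

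**Figure D4:**
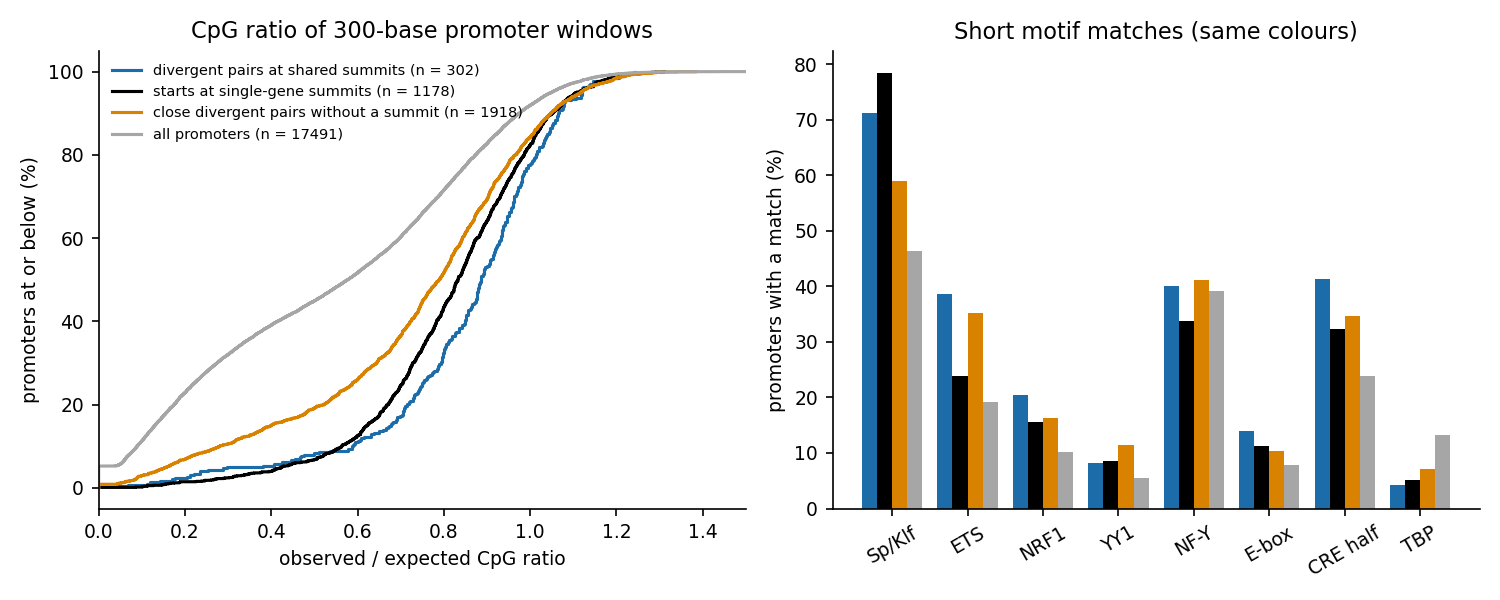
Left, cumulative share of promoters (%) against the observed to expected CpG ratio of 300-base windows in 4 groups. Right, share of promoters (%, bars from 0) with a match to each motif, named by its factor or box. The CpG curves of shared and single-gene summits run together to the right of all promoters, while the ETS bars are high in both divergent groups (38.7% and 35.2%) and lower in the other 2 groups (23.9% and 19.1%).

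Genes at shared summits were sorted into 21 families by their symbols, counting a gene at either of its ends. A symbol does not establish what a gene does, and no count was corrected for function. The shares were highest for centrosome and cilium genes (7 of 75, 9.33%, 95% interval 3.84 to 18.3), chromatin enzymes and remodellers (8 of 91, 8.79%, 3.87 to 16.6), mitochondrial import and carriers (6 of 73, 8.22%, 3.08 to 17.0), DNA repair (5 of 77, 6.49%, 2.14 to 14.5) and RNA processing (12 of 206, 5.83%, 3.05 to 9.95), beside 2.51% of all genes. Close neighbours are common in these families, and among genes with a close neighbour the shares were 14.9%, 14.5%, 13.3%, 8.62% and 9.38%, beside 5.93% of all such genes. Centrosome and chromatin genes were also more often near any summit (21.3% and 25.3%, beside 9.34%). The intervals treat genes as independent and the families were not tested.

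**Figure D5:**
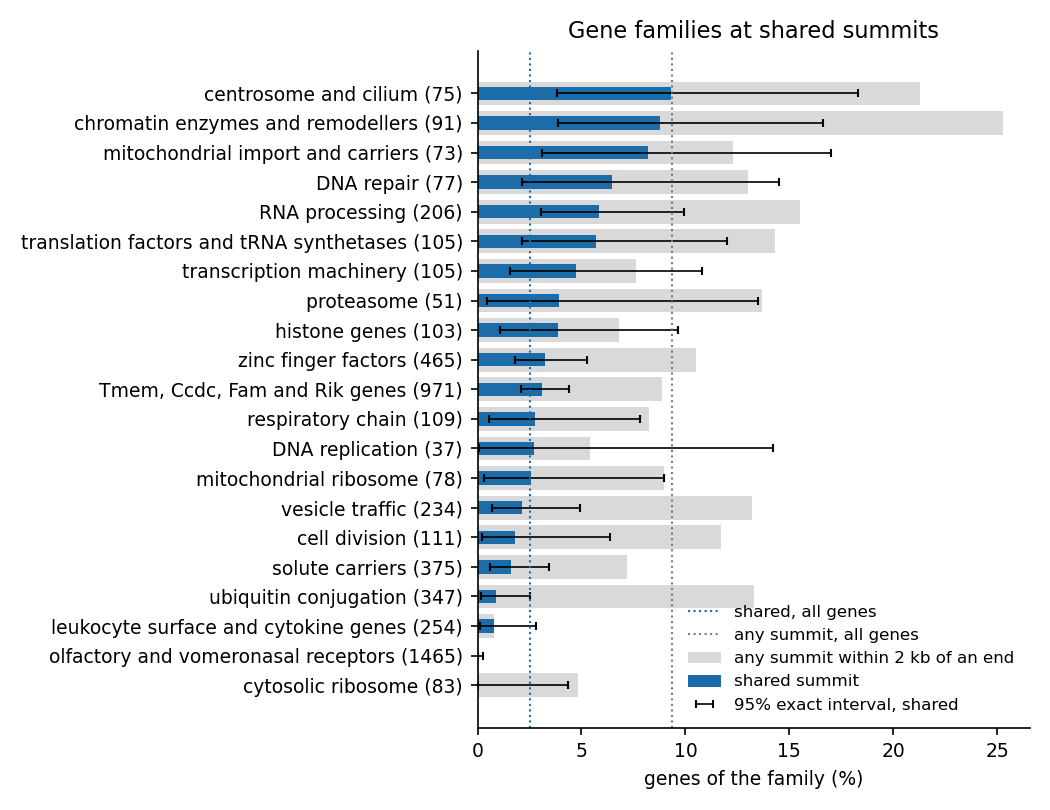
Share of each gene family (%, number of genes in parentheses) with any summit within 2 kb of an end (grey bars) and with a shared summit (blue bars, 95% exact intervals), with the shares over all genes as dotted lines. Centrosome, chromatin and mitochondrial import genes lead with 8.22% to 9.33% at shared summits; ubiquitin genes have many summits (13.3%) but few shared ones (0.865%).

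Members of these families are named with their scores and, for some, the gene at the other end. For the centrosome they included Cep170 (10.5, with Sdccag8), Ift140 (6.63, with Cramp1l), a ciliary transport protein, Cep57l1 (5.51), the γ-tubulin complex genes Tubgcp2 (3.50) and Tubgcp4 (2.06), and Cep57 (3.33). Chromatin genes included Kat14 (5.41), an acetyltransferase subunit, Kdm1b (5.04, with Tpmt), an H3K4 demethylase, and Cbx6 (4.54), a Polycomb subunit. The BAF subunits Smarcd1 (3.803) and Smarcd2 (3.51) were also among them. Setd3 (6.08, with the cyclin gene Ccnk) was counted in this family by its symbol alone. Mitochondrial import and carrier genes were Slc25a25 (9.18, with Naif1), a carrier of ATP-Mg and phosphate, Tomm20 (7.80, with Rbm34), the outer-membrane receptor, Slc25a32 (4.54), a folate and FAD carrier, Timm23 (4.09, with Parg), the inner-membrane channel, Timm9 (2.90) and Slc25a16 (2.77, with Dna2). At Timm23/Parg the starts are 39 bp apart and the summit lay 85 bp inside Parg, which encodes the hydrolase of poly(ADP-ribose).

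DNA repair genes included Lig4 (4.26, with Abhd13), the ligase of end joining, Atr (4.03), the replication stress kinase, Rad17 (2.22), a clamp loader, and Rpa1 (2.08, with Smyd4), which binds single-stranded DNA. RNA processing genes were led by Exosc7, Rbm34, Ddx21 (7.50, with Kifbp), a nucleolar helicase, Srsf7 (5.89, with Gemin6), a splicing factor, and Ddx42 and Ints7 (both 5.41). Translation genes numbered 6 of 105 (5.71%): the tRNA synthetases Qars, Ears2 (7.30), Yars (5.63), Rars2 (5.04, with Orc3, of the origin recognition complex) and Iars2 (2.02), and Eif5b (3.07), a GTPase of subunit joining. The transcription machinery had 5 of 105 (4.76%), namely Taf1d (7.89), Taf6l (6.53), Taf11 (5.98), Gtf3c4 (3.50, with the helicase gene Ddx31) and Taf9 (2.22).

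The remaining families had shares from 0% to 3.92%. The mitochondrial ribosome had 2 of 78, Mrpl22 (7.996) and Mrps6 (6.54), and the respiratory chain 3 of 109, Ndufa13 (6.80), Uqcrh (4.92) and Ndufv2 (4.29). Vesicle traffic had 5 of 234, led by Sec61a2 and Arl5b (7.01), and solute carriers 6 of 375. Cell division had 2 of 111 (Ccnk and Ccnj, 4.29), both counted by their cyclin symbols alone. Zinc finger factors had 15 of 465 (3.23%), led by Zbtb48 (6.08). They too were counted by symbol, with Zbtb8os (3.33) among them. Histone genes had 4 of 103 (3.88%) and DNA replication 1 of 37, Orc3. The ubiquitin family had 3 of 347 (0.865%, 0.179 to 2.51), Cul4a (5.11), Ube2k (5.09) and Rnf170 (2.51), although 46 of its genes had a summit. The proteasome count (2 of 51, 3.92%) was Psma7 (2.08) and Psme3ip1, whose product binds a proteasome activator and is no subunit. Leukocyte surface and cytokine genes had 2 of 254 (0.787%), Cd37 and Il10rb (2.49, beside Ifnar2). Cytosolic ribosomal proteins had 0 of 83, where 3 counts of the total are 3.61% and the exact 95% upper bound is 4.35%. Olfactory and vomeronasal receptors had 0 of 1465, where these values are 0.205% and 0.251%. A shared summit needs a close neighbour, which only 51 of these 1465 receptors had. The leukocyte family had 68 of 254 genes with one and the cytosolic ribosome 55 of 83, beside 9268 of all 21883 genes. Shares over whole families therefore depend on gene spacing too, and its part was not tested.

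Few pairs joined genes of the same family. By these families (without the one of Tmem, Ccdc, Fam and Rik symbols, where 30 of 971 genes had a shared summit) they were 3 of the 283: the histone pairs H2ac15/H2bc15 (4.26) and H2bc9/H3c7 (6.63), and the zinc finger pair Zfp398/Zfp786 (3.17). H2ac15 and H2bc15 start 164 bp apart, and the summit was 231 bp inside H2ac15. Pairs known to work in the same process, chosen after their values were seen, were Hspe1/Hspd1 and Paics/Ppat. Hspe1 and Hspd1 encode the mitochondrial chaperonins HSP10 and HSP60, overlap by 96 bp at their starts, and had a summit scoring 4.83 that lay 122 bp inside Hspe1. Paics and Ppat encode enzymes of purine synthesis, overlap by 277 bp, and had a summit (3.50) 326 bp inside Paics. Ung and Alkbh2, both DNA repair enzymes, had a summit (3.33) inside both genes, 62 bp past the Ung start.

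Immune and signalling genes were also picked after their values were seen. Cgas, which encodes the cytosolic DNA sensor, and Mto1, a mitochondrial tRNA modifier, had a summit (5.04) 357 bp inside Cgas. Elf1, an ETS factor of lymphocytes, and Wbp4, a splicing protein, had a summit (2.49) 335 bp inside Wbp4, 241 bp before the annotated start of Elf1. The summit at Lag3/Ptms (5.04) lay 260 bp from the transcript end of Ptms and 1501 bp from an end of Lag3. Foxo1 had a single-gene summit, and neither Ppargc1a nor Pck1 had a summit within 2 kb of an end. Of 8 CD8 T cell markers (Cd3d, Cd3e, Cd3g, Cd8a, Cd8b1, Cd2, Cd5, Lck), 0 had a summit within 2 kb of an end. The same count was 0 for the 4 B cell markers, the 4 myeloid markers, and the 2 markers each of CD4 T cells and NK cells, so the labelled cell type could not be checked from these markers.

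Shared summits made up 5.36% (chromosome 18) to 18.1% (chromosome 8) of the nuclear summits of each autosome. None were on X: 0 of its 22 summits were shared, where 3 counts of the total are 13.6% and the exact 95% upper bound is 15.4%. Of 153 close gene pairs on X 0 had a shared summit (3 counts 1.96%, exact upper bound 2.38%), beside 283 of 6549 (4.32%, 95% interval 3.84 to 4.84) on autosomes. Single autosomes ranged from 3 of 489 close pairs (0.613%, chromosome 18) to 16 of 176 (9.09%, chromosome 12), so a low share was not limited to X.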

How the data were processed

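A single list of peak summits was analysed. The submitters' processing notes name the build mm10 and the tools MACS2 2.1.2, Bowtie2 2.3.5, Trimmomatic 0.39 and FastQC 0.11.8. Settings of the peak caller, whether the input served as control, and how duplicate or multiply mapping reads were treated are all not stated in the labels. Each summit carries a score that the authors deposited, a −log10 p or q value, without saying which. The 2315 rows of the list are positions of 1 bp and hold 2204 peaks, 94 with several summits. Genes came from the RefSeq table of GRCm38.p6. It gives no strand, so strands were taken from the RefSeq promoter table, which covers 17491 of 21883 nuclear protein-coding genes (79.9%). The outermost annotated end was taken as the start.

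Named genes are the 15 highest-scoring summits, the 5 with ends of 3 genes, the 10 closest start-to-start pairs, the 6 highest-scoring start-to-end and end-to-end pairs each, and up to 6 members per family. Genes outside this rule are marked in the text as picked with their values in view. Some family members are not reported here. The members, families and lists were chosen with earlier results of these data known. Intervals are exact (Clopper-Pearson, 95%). The rule was tested on simulated summits over 21883 genes: 100 of 100 at close pairs and 0 of 100 at lone starts came back as shared, which checks the code only. Alternatives covered the window, the choice of summit, score limits, all annotated genes, overlapping genes and another source of starts. Computations used scipy 1.17.1, pandas 2.3.3 and numpy 2.4.6 under Python 3.11.15, with plots by matplotlib 3.10.9.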

Additional observations from a re-analysis of the deposited data

How the results depend on the processing

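The main values were 276 shared summits (12.6% of nuclear summits), 76.7% of them with starts of 2 genes, a median spacing of 249.5 bp, 4.22% of close pairs and a median score of 4.54. A 1 kb window gave 9.89% of nuclear summits, 84.1% with starts of 2 genes and a spacing of 171 bp, and a 5 kb window gave 438 summits, 19.95%, 65.4% and 723.5 bp. The 50% of nuclear peaks with the highest score gave 127 summits and 1.895% of close pairs, since fewer peaks were used. The median score was 6.63 there, higher by construction because the peaks were selected by score. All annotated genes gave 581 summits, 26.5%, 85.2% with starts of 2 genes and 3.485% of close pairs. Leaving out pairs whose spans overlap gave 166 summits, 7.56% and 3.50% of close pairs. The cause of these shifts was not tested beyond the change in genes, pairs or window itself. With starts from the promoter table, a setting chosen after seeing the data, 67.0% had starts of 2 genes. The other alternatives, among them the highest-scoring summit of each peak and leaving out peaks scoring over 20, moved these values by less than their 95% intervals, or a count by less than 1.5 times. All values rest on 1 library, a single score per peak and strands for 79.9% of genes, and peaks of other cultures or of untreated cells were not analysed here. No paired analysis was possible because there is 1 ChIP library.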

Other observations

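Ends of long non-coding RNA genes were less common at shared than at single-gene summits. Of the 276 shared summits, 20 (7.25%, 95% exact interval 4.48 to 11.0) had an end of an annotated long non-coding RNA gene within 2 kb, against 258 of 1532 (16.8%, 15 to 18.8) single-gene summits. The spans of these genes were taken from the same RefSeq table, and neither expression nor strand entered the count. No share was taken over close gene pairs without a summit, so the part of the annotation in this difference was not tested.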
